A study of Mus musculus with 6 samples.

Results

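The 10 genes described here encode the metallothioneins Mt1, Mt2 and Mt3, the peroxiredoxins Prdx1, Prdx2 and Prdx6, the superoxide dismutases Sod1, Sod2 and Sod3, and catalase (Cat). They were chosen by symbol, and 10 of 10 were found among the 12968 genes of the deposited table. The RNA came from middle sections of the mouse brain hemisphere and was bound to ribosomes carrying the RiboTag epitope, a tag on the ribosomal protein Rpl22 that is present only in cells with Cre recombinase. The MCAO group was 3 mice whose middle cerebral artery was occluded for 1 h, with the occluded left hemisphere taken after 3 days. The control group was 3 mice without occlusion, also killed after 3 days, with the left hemisphere taken; the labels describe no sham operation. The RiboTag precipitation was common to both groups. The series title names the astrocyte transcriptome, but no source used here gives the Cre driver, strain, age or sex. A library stands for 1 animal, and the numbers 1 to 3 only name libraries.

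Metallothioneins are small cysteine-rich proteins that hold zinc and copper ions in the cytosol and can scavenge oxidants. Transcription of Mt1 and Mt2 is induced by zinc through the factor MTF-1, by glucocorticoids and by STAT3, whereas Mt3 is the form typical of the brain. Superoxide dismutases turn superoxide into hydrogen peroxide: Sod1 in the cytosol with copper and zinc, Sod2 in the mitochondrial matrix with manganese, and Sod3 outside the cell. Peroxiredoxins and catalase then remove the peroxide. Astrocytes are a main site of metallothionein and Prdx6 expression in the brain, and their peroxide defence is known to protect neighbouring neurons.

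The metallothionein genes lie side by side on mouse chromosome 8 (GRCm38.p6, the assembly that mm10 names). Their promoter windows were picked with the values known: libraries of Mt1 and Mt2 parted between the groups, those of Mt3 overlapped, and only Mt2 was called. Mt3 spans 94152607 to 94154148, Mt2 94172618 to 94173567 and Mt1 94178883 to 94180327, with 18469 bases between Mt3 and Mt2 and 5315 between Mt2 and Mt1. The RefSeq windows below run from 250 bases before to 50 after the start that the table uses, on the plus strand; for Mt1 that start lies inside the gene span. Capitals mark the core letters of the metal response element that MTF-1 recognises, TGCACNC or TGCGCNC, on either strand.
Mt1, chr8:94178839-94179138: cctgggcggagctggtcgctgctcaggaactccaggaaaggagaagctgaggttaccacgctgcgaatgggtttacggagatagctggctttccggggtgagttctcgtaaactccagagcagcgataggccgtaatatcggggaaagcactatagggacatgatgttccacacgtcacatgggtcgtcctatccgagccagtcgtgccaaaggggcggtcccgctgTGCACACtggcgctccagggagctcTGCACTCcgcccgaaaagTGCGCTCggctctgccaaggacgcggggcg
Mt2, chr8:94172368-94172667: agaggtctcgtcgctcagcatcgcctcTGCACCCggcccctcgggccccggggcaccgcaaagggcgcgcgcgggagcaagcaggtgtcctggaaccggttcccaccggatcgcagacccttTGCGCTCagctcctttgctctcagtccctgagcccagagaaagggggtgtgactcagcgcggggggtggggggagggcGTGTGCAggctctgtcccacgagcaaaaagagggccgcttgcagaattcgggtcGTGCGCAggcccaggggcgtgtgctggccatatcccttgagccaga
Mt3, chr8:94152357-94152656: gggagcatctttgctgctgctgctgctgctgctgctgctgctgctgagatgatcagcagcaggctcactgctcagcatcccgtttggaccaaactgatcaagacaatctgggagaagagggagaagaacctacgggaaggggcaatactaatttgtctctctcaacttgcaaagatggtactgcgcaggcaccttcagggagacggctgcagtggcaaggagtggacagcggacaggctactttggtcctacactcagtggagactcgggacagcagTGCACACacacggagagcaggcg
The core letters stood at 3 places in the Mt1 window, at -23, 2 and 20 bases from the start. The Mt2 window held 4, at -223, -128, -50 and 4, and the Mt3 window held 1, at 27. Of 32851 RefSeq windows of this length 25.7% held at least 1 match, 1.97% at least 3 and 0.517% at least 4. The windows were not matched for base composition, and a match of letters is not a measured binding site. Bases outside the windows were not searched, so these counts do not compare whole promoters, least of all for Mt1 with its start inside the gene. A link between these letters and the values of the genes was not tested.

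Prdx1 (chromosome 4, 116685599 to 116700000) has a window that can be compared with the Mt2 window for the antioxidant response element, the sequence bound by NRF2, searched as TGACNNNGC on either strand and in capitals here.
Prdx1, chr4:116685349-116685648, plus strand: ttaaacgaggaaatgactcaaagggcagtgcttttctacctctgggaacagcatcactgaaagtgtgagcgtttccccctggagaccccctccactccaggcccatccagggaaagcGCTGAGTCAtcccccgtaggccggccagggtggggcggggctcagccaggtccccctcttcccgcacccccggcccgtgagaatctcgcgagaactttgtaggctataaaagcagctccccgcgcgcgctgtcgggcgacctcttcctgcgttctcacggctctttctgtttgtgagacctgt
The match in Prdx1, 133 bases before the start, and the match in Mt2, 79 bases before the start, both read TGACTCAGC, on opposite strands. That exact run stood in 0.454% of all windows, and the looser pattern in 12.4%. Sod1 (chromosome 16, 90220762 to 90226333) also had 1 match of the looser pattern, at -56, which read TGACCACGC. The windows of Mt1, Mt3, Prdx2 (chromosome 8, 84969622 to 84974811), Sod2 (chromosome 17, 13007839 to 13018119) and Cat (chromosome 2, 103453904 to 103485153) held no such letters. Bases beyond each window were not searched, so a window without a match does not show that the gene lacks the element. Windows were found for 8 of the 10 genes. Prdx6 (chromosome 1, 161240112 to 161251210) and Sod3 (chromosome 5, 52363804 to 52369738) were the others.

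Values are scaled read counts, which are reads per gene divided by 1 factor per library. Library depth, from 882263 reads in MCAO 2 to 9519548 in control 1, sets the counting error of each value. Behind the values of the 10 genes stood between 89 and 6047 reads per library, apart from Sod3 with 3 to 100. Among the 12 astrocyte markers tested, summed levels ran from 34922 to 55588 in controls and from 40428 to 52950 after MCAO, with control 2 the lowest of all. Of these 12 genes 1 rose and 0 fell at a limma adjusted p under 0.05, where 2.30% of all tested genes rose and 0.789% fell. Gfap, the astrocyte intermediate filament gene, rose from 576 ± 64.9 to 6372 ± 1459.8 (SD, n = 3 each, limma adjusted p = 1.93e-07). The median log2 change of the list was -0.03. Neuron markers were abundant too (10 of 10 tested, 20188 to 25713 over the 6 libraries), and no input RNA was used here to measure enrichment. Microglia markers (12 of 12 tested) summed to 599 to 781 in controls and 2208 to 2929 after MCAO, and oligodendrocyte markers (10 of 10) to 8352 to 9523 and 12426 to 15897. In such pooled tissue, a change in the number of cells of a type and in RNA per cell cannot be told apart.

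After MCAO, 2 of the 10 genes rose and 0 fell at a limma adjusted p under 0.05: Mt2 and Prdx6, whose mean scaled reads were 1.93-fold and 1.81-fold those of the controls. Over all 12549 tested genes 3.08% were called, 2.30% as higher and 0.789% as lower. In Mt1, Mt2, Prdx1, Prdx2, Prdx6 and Sod1 every MCAO library lay above every control, 6 of the 10 genes, where 12.4% of all tested genes did so; in 0 of the 10 did every MCAO library lie below, against 12.5%. The median log2 change of the 10 was 0.51, beside -0.01 over all tested genes, 8 of the 10 had a positive log2 change, against 48.7%, and 7 of the 10 had an unadjusted p under 0.05, against 19.3%. Such shares describe a list chosen by function, and its members are not independent of each other.

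**Figure D1:**
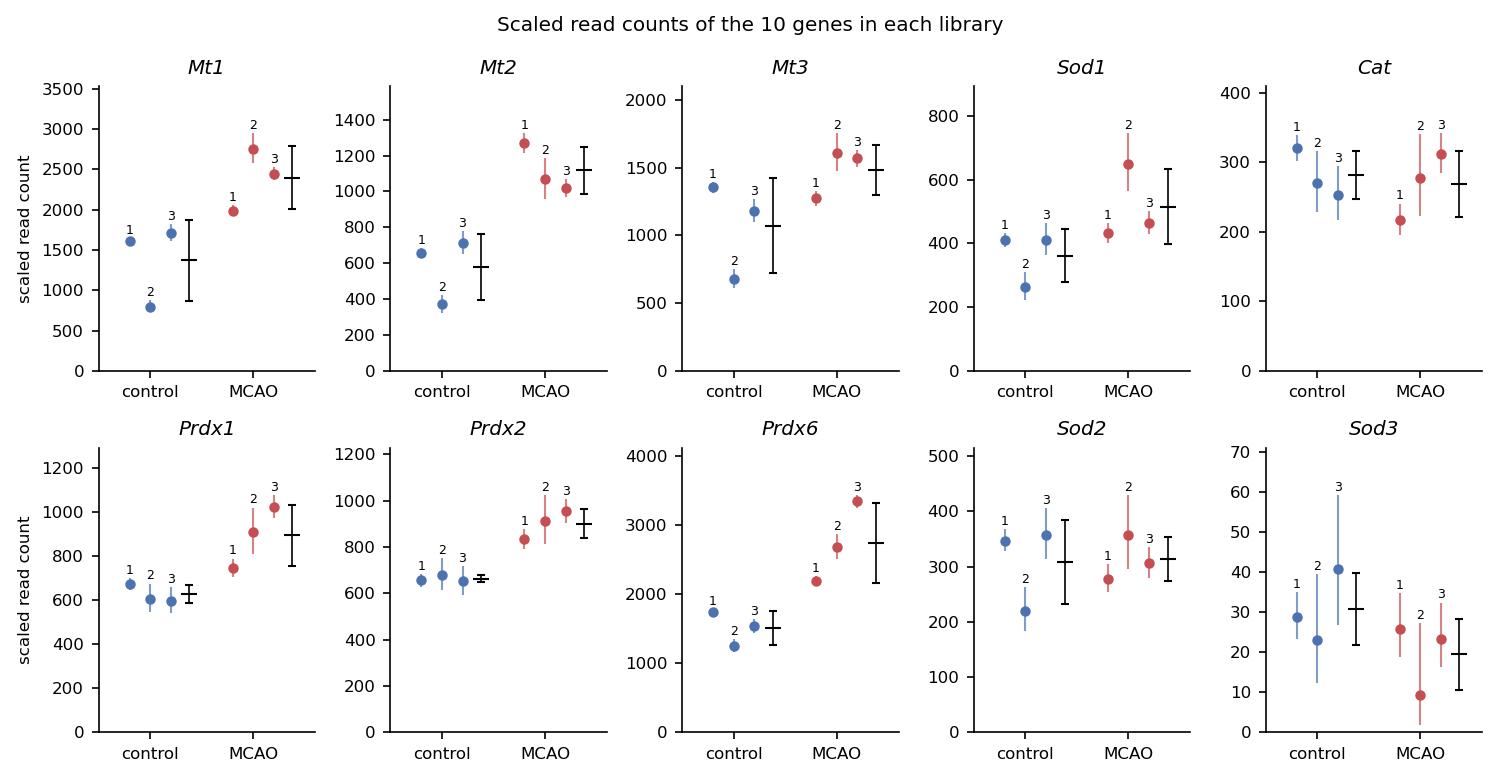
Scaled read counts (vertical axis, from 0) of each of the 10 genes in the 3 control and 3 MCAO libraries, numbered 1 to 3, with 95% exact Poisson intervals as coloured lines and the group mean and SD in black. In Mt2 the controls sit at 371 to 712 and the MCAO libraries at 1018 to 1268, while the groups of Sod2 and Cat overlap.

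Mt2, one of the 2 widely expressed metallothioneins, stood at 655, 371 and 712 scaled reads in controls 1, 2 and 3, and at 1268, 1067 and 1018 in MCAO 1, 2 and 3. The groups did not overlap, and control 2 was the lowest of the 6. From a mean of 579 ± 183 to 1118 ± 133 (SD, n = 3 each), Mt2 rose by 1.00 on the log2(value + 1) scale (SE 0.21, 95% interval 0.54 to 1.45, limma adjusted p = 0.0208). It ranked 196 of 12549 genes by p. Mt2 was not called without MCAO 1 (adjusted p = 0.0675), MCAO 2 (0.0516) or MCAO 3 (0.0611), and its log2 change was 0.70 (adjusted p = 0.0191) without control 2.

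Mt1, the neighbouring gene and the other widely expressed form, stood at 1608, 796 and 1713 scaled reads in the controls and at 1985, 2756 and 2446 after MCAO. The groups did not overlap here either, but control 2 was far under the other controls, which left a wide spread of 1372 ± 501 against 2395.5 ± 388 (SD, n = 3 each). The log2 change of 0.87 (SE 0.25, 95% interval 0.34 to 1.40) missed the threshold (limma adjusted p = 0.0747). Without control 2 it was 0.52 (adjusted p = 0.102).

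Mt3, the brain form, stood at 1355, 678 and 1180.1 scaled reads in the controls and at 1274, 1608 and 1569 after MCAO. MCAO 1 lay under control 1, so the groups overlapped. Means were 1071 ± 352 and 1483 ± 183 (SD, n = 3 each), with a log2 change of 0.52 (SE 0.22, limma adjusted p = 0.212). Without control 2 the difference was 0.22 (adjusted p = 0.460). Mt4, the remaining member of the cluster, was not among the 12968 genes with deposited values.

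Control 2 was the lowest library for Mt1, Mt2 and Mt3, for Prdx6, Sod1 and Sod2, and for the astrocyte markers. The mean log2 level of these 12 markers was 10.45 in control 2, against 11.13 and 11.07 in controls 1 and 3 and 10.83 to 11.24 after MCAO. Without Gfap it was 10.58 in control 2, 11.30 and 11.24 in the other controls and 10.67 to 11.08 after MCAO, and 6 of the 12 markers were lowest in control 2. Its part in the metallothionein differences was not tested, beyond the values without control 2. Ratios within a library cancel whatever scales both genes alike. The Mt2 over Mt1 ratio was -1.29, -1.10 and -1.26 on the log2 scale in the controls and -0.65, -1.37 and -1.26 after MCAO, so MCAO 1 alone stood high. The groups differed by 0.13 (two-sided exact permutation p = 0.8). The Mt3 over Mt1 ratio was -0.25, -0.23 and -0.54 in the controls and -0.64, -0.78 and -0.64 after MCAO. Every MCAO library was lower here, with a difference of -0.35 (exact permutation p = 0.1, the smallest that 3 against 3 allow; 0.167 after Benjamini-Hochberg over the 5 ratios tested). Only the change of such a ratio is read, since its level depends on transcript length.

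**Figure D2:**
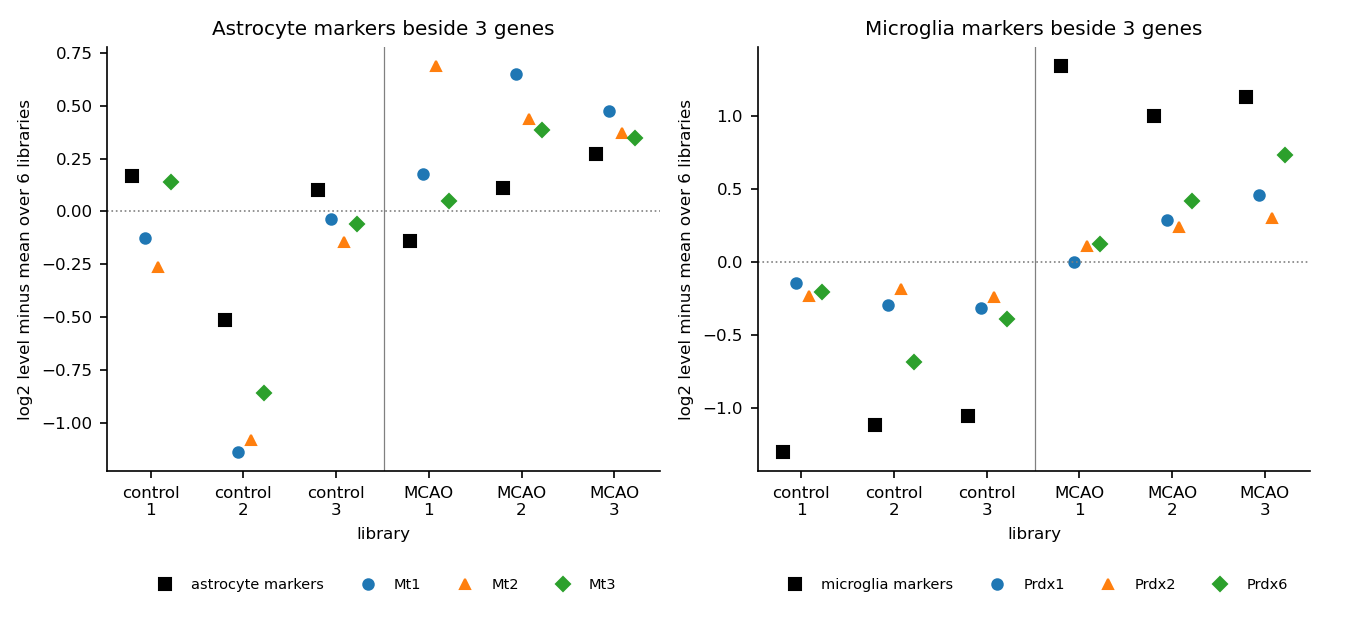
Log2 level minus its own mean over the 6 libraries (vertical axis) in each library (horizontal axis), for the mean of 12 astrocyte markers beside Mt1, Mt2 and Mt3 (left) and of 12 microglia markers beside Prdx1, Prdx2 and Prdx6 (right). Control 2 is the lowest library for the astrocyte markers and all 3 metallothioneins, and also for Prdx6. Every MCAO library is above every control for the microglia markers and the 3 peroxiredoxins, and also for Mt1 and Mt2.

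Prdx6, a peroxiredoxin with a single active cysteine that also has phospholipase activity and reduces lipid peroxides, stood at 1740.3, 1249 and 1536 scaled reads in controls and at 2188, 2687 and 3338 after MCAO. All MCAO libraries were above all controls, with MCAO 3 the highest. Prdx6 rose from 1508.5 ± 247 to 2738 ± 577 (SD, n = 3 each), by 0.85 in log2 (SE 0.19, 95% interval 0.45 to 1.25, limma adjusted p = 0.0249). Its rank by p was 214. Prdx6 was not called without control 3 (adjusted p = 0.0680), MCAO 2 (0.0686) or MCAO 3 (0.107). RefSeq lists the copy Prdx6b and a pseudogene, Prdx6-ps2, and no source used here says how reads shared with such copies were counted.

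Prdx1, a cytosolic thioredoxin-dependent peroxidase and a known NRF2 target, stood at 675, 608 and 599 scaled reads in the controls and at 748, 911 and 1026 after MCAO. The controls lay close together and the MCAO libraries were all higher and more spread. With 628 ± 41.5 and 895 ± 140 (SD, n = 3 each), the log2 change of 0.50 (SE 0.15) was not called (limma adjusted p = 0.0934). A RefSeq pseudogene, Prdx1-ps, and the overlapping noncoding gene AV051173 could share its reads.

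Prdx2, its cytosolic relative and an abundant protein of neurons and red blood cells, stood at 656, 681 and 653 in the controls and at 834, 914 and 955 after MCAO. These were the tightest groups of the 10 genes, with SDs of 2.30% and 6.82% of their means of 664 and 901 scaled reads (n = 3 each). The log2 change was 0.44 (SE 0.14, limma adjusted p = 0.0978). The RefSeq pseudogenes Prdx2-ps1 and Prdx2-ps2 could share reads of Prdx2. Of 6 red cell markers 4 were tested, all haemoglobin genes, and their sum ran from 226 to 342 in controls and from 360.3 to 577 after MCAO. Of these Hba-a1, an alpha globin gene, rose from 34.9 ± 15.8 to 115.9 ± 38.7 (SD, n = 3 each; log2 change 1.75, SE 0.34, limma adjusted p = 0.0116). The groups of Hba-a2, Hbb-bs and Hbb-bt overlapped and were not called (adjusted p = 0.114, 0.252 and 0.376). The part of red cell RNA in the Prdx2 difference was not tested.

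The peroxiredoxins were also set against each other. Prdx6 over Prdx1, as a log2 ratio within a library, was 1.36, 1.04 and 1.36 in the controls and 1.55, 1.56 and 1.70 after MCAO. The groups did not overlap and differed by 0.35 (exact permutation p = 0.1, adjusted 0.167). Prdx2 over Prdx1 ran from -0.04 to 0.16 in the controls and from -0.10 to 0.16 after MCAO, with a difference of -0.06 (exact permutation p = 0.6).

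**Figure D3:**
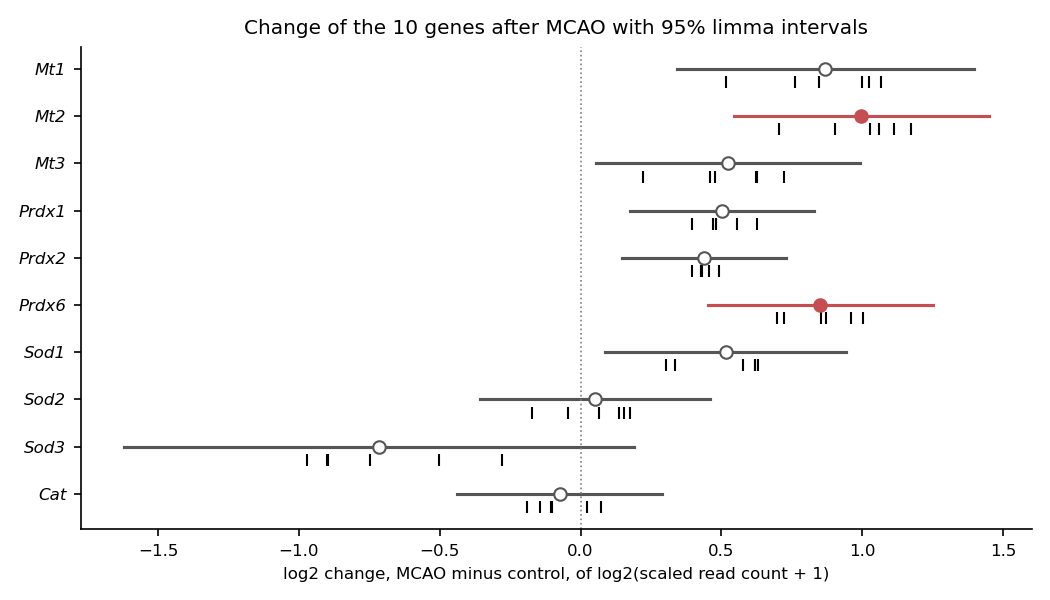
Log2 change after MCAO (horizontal axis) of each of the 10 genes, with 95% intervals from limma as lines and the values with each of the 6 libraries left out as black ticks. Filled red points are the called genes, Mt2 at 1.00 and Prdx6 at 0.85, and the intervals of Sod2, Sod3 and Cat include 0.

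Sod1, the copper-zinc enzyme, stood at 410.4, 264 and 410.5 scaled reads in controls and at 432, 650.05 and 464 after MCAO. Every MCAO library was above the controls, but MCAO 1 exceeded controls 1 and 3 only narrowly. Means of 362 ± 84.4 and 515 ± 118 (SD, n = 3 each) gave a log2 change of 0.52 (SE 0.20, limma adjusted p = 0.178), and of 0.30 (adjusted p = 0.400) without control 2. Ccs, the copper chaperone that loads Sod1, was picked for this role after its value was seen and stood at 74.7 ± 7.56 and 79.1 ± 7.86 (log2 change 0.08, SE 0.20).

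Sod2, the mitochondrial enzyme and a known NF-kappaB target, stood at 347, 220.0 and 358 scaled reads in controls and at 278, 358 and 306 after MCAO. The groups overlapped, at 308 ± 76.5 and 314 ± 40.3 (SD, n = 3 each). The log2 change was 0.05, with a 95% interval of -0.36 to 0.46 (limma adjusted p = 0.916), and was -0.17 without control 2. The Sod2 over Sod1 ratio parted the groups where Sod2 itself did not. On the log2 scale it was -0.24, -0.26 and -0.20 in the controls and -0.63, -0.86 and -0.60 after MCAO. The controls had an SD of 0.03 and all MCAO libraries were lower, with a difference of -0.46 (exact permutation p = 0.1, adjusted 0.167). It stayed between -0.51 and -0.38 with any 1 library left out.

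Sod3, the extracellular enzyme, had few reads. It stood at 28.8, 23.1 and 40.7 scaled reads in controls and at 25.9, 9.33 and 23.3 after MCAO, from 100, 13 and 27 reads and 44, 3 and 35 reads. The 3 reads of MCAO 2 have a 95% exact Poisson interval of 1.92 to 27.3 scaled reads, which reaches into the control values. Means of 30.9 ± 9.02 and 19.5 ± 8.91 (SD, n = 3 each) gave a log2 change of -0.72 (SE 0.42, 95% interval -1.62 to 0.19, limma adjusted p = 0.378). Without MCAO 2 it was -0.28 (adjusted p = 0.761). Of 6 leptomeningeal fibroblast markers 6 were tested and limma called 0, where 3.08% of all tested genes were called. In MCAO 2, the shallowest library, 5 of the 6 were lowest. Lum and Slc6a13 stood at the floor of 1 there and Col1a1 at 9.33, the level of 3 reads, so depth limits these values. The matrix gene Dcn stood at 18.7 scaled reads in MCAO 2, against 57.1 to 120.7 in the other libraries. The growth factor gene Igf2, which makes up most of their sum, was not lowest there, at 378, 386 and 338 in MCAO 1, 2 and 3. The sum ran from 605 to 853 in controls and from 441 to 568 after MCAO, and the part of these cells in the Sod3 values was not tested.

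Cat, the peroxisomal enzyme that splits hydrogen peroxide, stood at 319.7, 269.6 and 254 scaled reads in controls and at 217, 277 and 312 after MCAO. MCAO 1 was the lowest and control 1 the highest library, and the groups overlapped. Means were 281 ± 34.5 and 269 ± 47.9 (SD, n = 3 each). The log2 change was -0.07 with a 95% interval of -0.44 to 0.29 (limma adjusted p = 0.855). Products of the peroxisome import genes bring catalase and other enzymes into the organelle. Of 13 such genes limma called 0, where 3.08% of all tested genes were called, so a count of 0 says little for a list this short. In 1 of the 13 all MCAO libraries lay above the controls and in 3 below, against 12.4% and 12.5% of all tested genes. The most abundant were Pex6, at 222 ± 49.7 and 251 ± 27.2, and Pex19, at 180.0 ± 22.7 and 167 ± 9.96 (SD, n = 3 each).

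**Figure D4:**
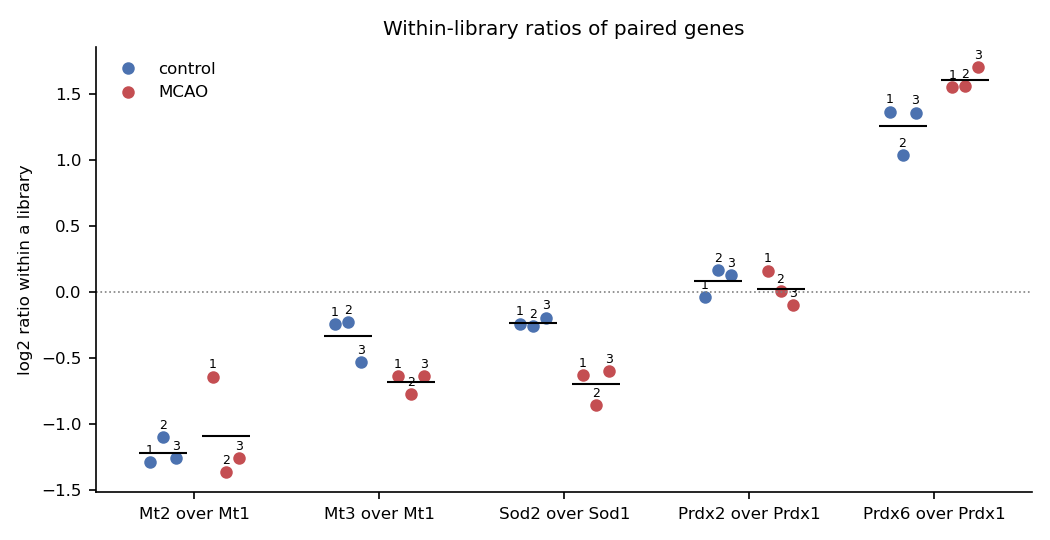
Log2 ratio of 2 genes within a library (vertical axis) for 5 gene pairs, with controls in blue, MCAO libraries in red, numbered 1 to 3, and group means as black bars. The groups part in Mt3 over Mt1, Sod2 over Sod1 and Prdx6 over Prdx1, each at the smallest exact p of 0.1, and overlap in the other pairs.

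Enzymes that act beside the 10 genes were taken from lists written by function. Over all tested genes 2.30% were called higher and 0.789% lower. Of 15 genes of the thioredoxin system and the other peroxiredoxins, 0 rose and 1 fell, with a median log2 change of 0.30. The fallen gene was Sesn3, a sestrin that is a FOXO target, from 798 ± 37.4 to 548 ± 25.6 scaled reads (SD, n = 3 each; -0.54, SE 0.14, limma adjusted p = 0.0442). In 6 of the 15 every MCAO library lay above the controls, and in 2 below, against 12.4% and 12.5% of all tested genes. Of 9 glutathione peroxidase, reductase and glutaredoxin genes 2 rose and 0 fell, with a median of 0.44. Gpx1, the cytosolic glutathione peroxidase, rose from 81.9 ± 6.82 to 224 ± 26.8 (1.44, SE 0.17, limma adjusted p = 0.000314) and Gpx3, the secreted form, from 53.1 ± 4.78 to 114 ± 16.7 (1.08, SE 0.21, adjusted p = 0.0114).

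Of 28 genes that handle zinc and copper, 26 were tested, 1 rose and 0 fell, with a median of 0.05. The shares over all tested genes were 2.30% higher and 0.789% lower. Slc30a3, which loads zinc into synaptic vesicles of neurons, rose from 124 ± 10.04 to 201 ± 23.9 scaled reads (SD, n = 3 each; log2 change 0.68, SE 0.17, limma adjusted p = 0.0413). Mtf1, which encodes the zinc-sensing activator of metallothionein genes and was picked for this role after its value was seen, stood at 86.8 ± 9.78 and 67.7 ± 3.29 (-0.35, SE 0.20, adjusted p = 0.371). Of 15 regulators of antioxidant and metallothionein genes, 1 rose and 0 fell, with a median of -0.09. Stat3, the cytokine-activated factor that also drives astrocyte reactivity, rose from 165 ± 3.28 to 305 ± 44.7 (0.87, SE 0.16, adjusted p = 0.00778).

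Of 14 listed sources of superoxide and peroxide, 10 were in the table and 8 passed the filter on the mean of at least 10. Of the 8 genes tested 4 rose and 0 fell: Cybb, Rac2, Ncf1 and Cyba, parts of the NADPH oxidase with which phagocytes make superoxide. Cybb, Rac2 and Ncf1 had control means under 10 and reached the filter only by their MCAO libraries, so the count does not stand for the list or the oxidase. Cybb, its catalytic subunit, rose from 2.84 ± 1.15 to 29.8 ± 1.67 scaled reads (SD, n = 3 each; 3.05, SE 0.53, limma adjusted p = 0.0061). Rac2 rose by 2.91 (SE 0.52), Ncf1 by 2.23 (SE 0.43) and Cyba by 2.20 (SE 0.40), with adjusted p from 0.00716 to 0.0115. Microglia markers had a median log2 change of 2.30, with 9 of 12 risen and 0 fallen. Over all tested genes 2.30% were called higher. Among the 12 microglia markers, 4 had control means under 10, 3 of them called, and reached the filter only by their MCAO libraries. Oligodendrocyte markers had a median of 0.79, with 6 of 10 risen and 0 fallen. Of the 12 astrocyte markers only Gfap rose, 0 fell, and the median was -0.03. Of 9 blood myeloid markers 4 were in the table and 3 were tested. These were Lyz2, Csf3r and Cd14, which rose, but Csf3r and Cd14 had control means under 10 and reached the filter only by their MCAO libraries. The sum of the 3 ran from 16.98 to 27.2 in controls and from 140.0 to 159 after MCAO. The endocytic receptor gene Mrc1 was not tested, at 6.62, 10.6 and 7.55 in the controls and 21.2, 3.11 and 9.99 after MCAO. The part of these cells in the results was not tested.

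**Figure D5:**
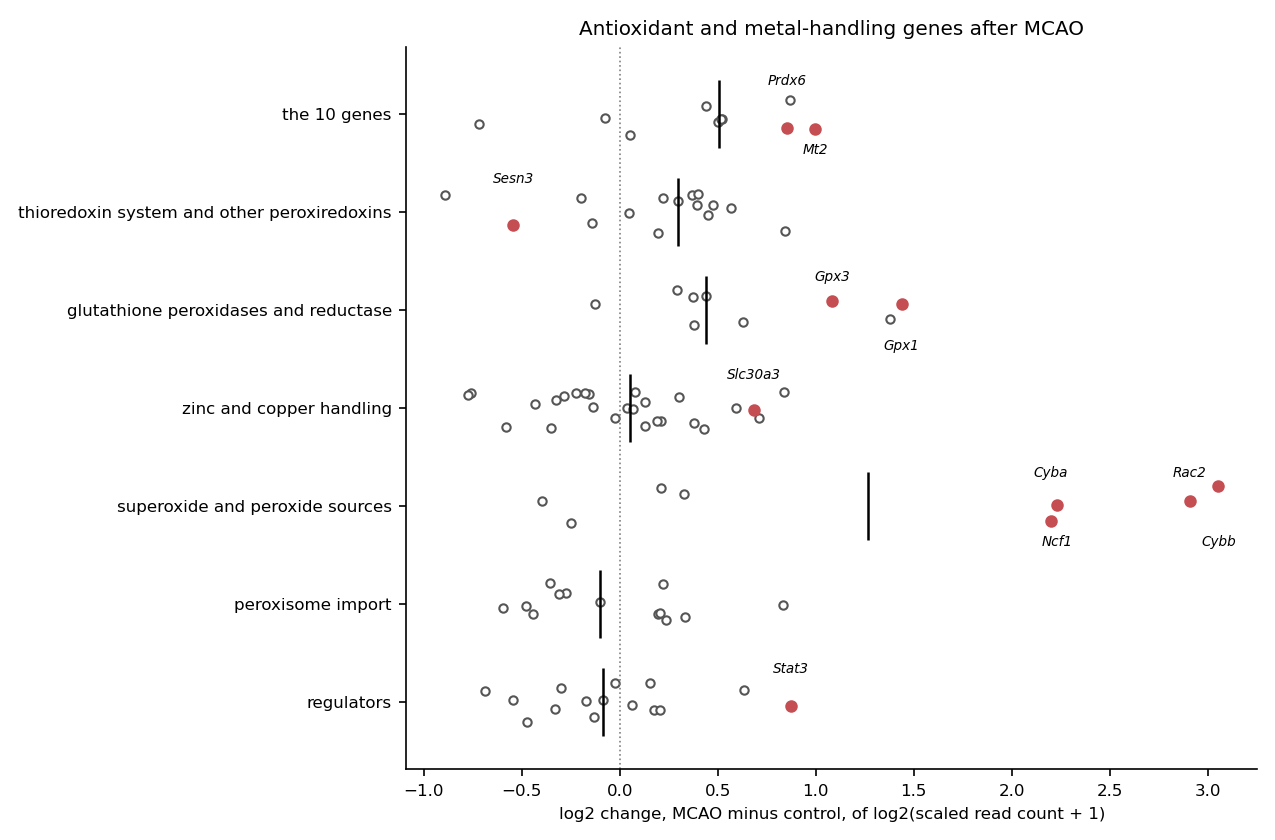
Log2 change after MCAO (horizontal axis) of every tested gene of the 10 and of 6 lists of related genes, with called genes in filled red and named, others as open circles, and list medians as black bars. The called genes are Mt2 and Prdx6 among the 10, and in the superoxide source list the 4 oxidase genes lie between 2.20 and 3.05.

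The pattern of each gene over the 6 libraries was set against those of the 8376 tested genes with a mean of at least 50, by the root mean square difference of log2 values centred on each gene's mean. For Mt2 the nearest were Chchd6, a mitochondrial crista protein gene (0.05), and Lamtor4, a lysosomal signalling scaffold gene (0.11). Mt1 was nearest to the caveolar gene Prkcdbp (0.10) and the calcium-binding protein gene S100a1 (0.12). Among the 10 themselves, Mt1 was nearest to Mt3 (0.20), Mt2 to Mt1 (0.24) and Prdx1 to Prdx2 (0.10). Prdx6 was nearest to the actin-binding profilin gene Pfn1 (0.09), which rose by 0.89 (limma adjusted p = 0.0184). For Prdx1 the nearest were Cotl1 (0.0732) and Marc2 (0.0773), with Txn1 (0.0777) in place 3. Txn1, the thioredoxin that reduces Prdx1, stood at 102 ± 11.7 and 152 ± 18.3 scaled reads (SD, n = 3 each, log2 change 0.57, limma adjusted p = 0.108). The gene nearest to Cat was Glul (0.05), the glutamine synthetase of astrocytes, and Sod1 was nearest to Tmed3 (0.03). With 6 libraries many genes have close patterns, and no test was made.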

How the data were processed

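RiboTag-precipitated polyA RNA of 6 mouse hemispheres was sequenced from TruSeq libraries, with 2 precipitations per animal pooled, per the labels. The deposited values are a normalised signal per gene; the submitters' processing notes list mm10, CASAVA 1.8, HISAT2 2.0.11, Partek 6.6, R 3.3.1 and DESeq2 without roles. The design names 2 technical replicates per animal, present as 1 column; no source used here gives the counting or joining. Each column consists of multiples of 1 step, 0.288 to 3.11, to within 0.1 read for at least 99.95% of values above 1; division by it gave the reads quoted. Values under 1 stand at 1. No libraries were identical.

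Log2(value + 1) was fitted by group with limma 3.58.1 (R 4.3.3, trended empirical Bayes, two-sided) over 12549 genes with a mean of at least 10. Benjamini-Hochberg adjustment covered all of them, and adjusted p under 0.05 is a call. The fold change of low genes is understated by the added 1. Ratios were compared by exact permutation of libraries (R 4.3.3). The labels give no batch or pairing. The exact Poisson intervals (SciPy 1.17.1) cover counting error only, and the limma intervals rest on the spread between libraries. Named genes were the 10 members, called members of each list (at most 4, or 2 for markers) or else the 2 most abundant, and nearest patterns; of the marker genes only those beside a result are printed, and Lyz2, Mrc1 and the other globin genes were added after their values were seen. Members and lists were chosen with earlier results of these data known. Positions and promoter windows are from RefSeq, GRCm38.p6. Alternatives covered pseudocounts, filters, quantile normalisation, moderation, library weights and left-out libraries.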

Additional observations from a re-analysis of the deposited data

How the results depend on the processing

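Of 149 values of single genes under 15 alternatives, 132 kept their direction and their side of the threshold, 8 were no longer called, 3 were newly called and 6 changed sign. Only Mt2 and Prdx6 could lose a call, and each lost it in 4 of the 15. Of the 10 genes 2 were called; 0 were with no intensity trend (Mt2 adjusted p = 0.170 and Prdx6 0.159) and 5 with library weights, where Mt1 (0.0353), Prdx1 (0.0291) and Prdx2 (0.0185) joined them. With 1 library left out the number ran from 0 (without MCAO 2 or MCAO 3) to 2. Over all genes, 387 calls became 157 with no intensity trend, 1002 with library weights and 148 to 306 with 1 library left out. Sod2, at 0.05, was at -0.13 with library weights, at -0.27 without control 2 and MCAO 2, the shallowest of each group, and from -0.17 to 0.18 with 1 library left out. Cat, at -0.07, ran from -0.19 to 0.071 in the same way, and Mt2 over Mt1, at 0.13, from -0.10 to 0.27. The cause of these shifts was not tested. With 3 animals against 3, ratios cannot reach an exact p under 0.1. At a mean of at least 50 Sod3 has no value. The planned count models on whole reads were not run: at the lowest values, where the floor of 1 stands, 5 columns did not pass a check for whole reads. No paired analysis was possible because the labels give no shared replicate numbers.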
